A study of Mus musculus with 143 samples.

Results

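The CM3 tumours described here are 10 of the 143 tumour RNA libraries in the series, taken by their sample titles. Of these, 5 came from mice given muDX400, an antibody against mouse PD-1, an inhibitory receptor of T cells. The other 5 came from mice given its mouse IgG1 isotype control. CM3 is a mouse tumour cell line that was implanted under the skin of the flank of mice. The sources used here do not give the host strain, sex or age. Mice of both arms were injected on day 11 and again on day 15 from implantation, and the tumours were taken on day 19, labelled as 8 days. A further 3 CM3 tumours were untreated baseline tumours. The labels place CM3 in the High class of response to anti-PD-1. No label says that the 5 libraries of an arm came from different mice, so p-values measure the spread between these samples, which may be technical. Values are FPKM, fragments per kilobase of transcript scaled to the depth of the library. Estimated depth was 14.7 to 22.3 M fragments in the 10 libraries, with a median of 18.5 M.

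PD-1, encoded by Pdcd1, is an inhibitory receptor that T cells display after activation. Its ligands PD-L1 (Cd274) and PD-L2 (Pdcd1lg2) are made by tumour cells, macrophages and dendritic cells, and PD-L1 is induced by interferon-gamma, the cytokine that activated T cells release. Antibodies that block PD-1 free T cells from this brake, and T-cell killing and interferon-gamma target genes are the usual readouts of their action in a tumour.

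The label could be checked against lineage genes. The mean of the 12 pigment genes of melanocytes, as log2(FPKM + 1), was 7.05 in the CM3 isotype tumours and 8.22 in those of B16F10, a mouse melanoma line, against 0.15 to 0.37 in the other 9 models. CM3 tumours therefore carry melanocyte genes at a high level, while the sample labels name the line without its tissue of origin.

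Isotype replicates 2, 3 and 4 stood apart from the other CM3 libraries. Isotype 4 correlated across genes at 0.977 to 0.987 with the 5 muDX400 libraries and at 0.82 to 0.936 with the other 4 isotype libraries. Isotype 2 and 3 correlated at 0.973 with each other and at no more than 0.922 with any other of the 10. Their FPKM totals were 784467 and 885333, against 507254 to 531146 in the other 8 libraries and 446984 to 668845 in the other 130 libraries of the series outside CM3. Transcript length separated them as well. Relative to the 10-library median, genes with transcripts under 500 bases were shifted by 0.48 and 0.34 in isotype 2 and 3, and genes with transcripts of 4000 bases or more by -0.61 and -0.78. The other 8 libraries stayed within -0.05 and 0.09 in these length classes, as the plot of shift by transcript length shows. In both libraries, 2819 of the 12945 genes tested (21.8%) lay above all the other 8 and 5400 (41.7%) lay below them. Rpl38 and Rplp2, short transcripts of ribosomal proteins, were at 2680 and 3309 FPKM in isotype 2 and at 4947 and 5608 in isotype 3, against 389 to 478 and 539.9 to 679 in the other 8. Vcl, the long transcript of the adhesion protein vinculin, was at 0.364 in isotype 2 and listed at 0 in isotype 3, against 16.2 to 24.9 in the others. Not every gene followed length. Abhd2, with a median transcript length of 5651.5 bases, was at 1109 and 2244 in isotype 2 and 3, against 58.5 to 80.2 in the others. Srp54b, with 663 bases, was at 0.235 and listed at 0, against 12.1 to 15.5.

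**Figure D1:**
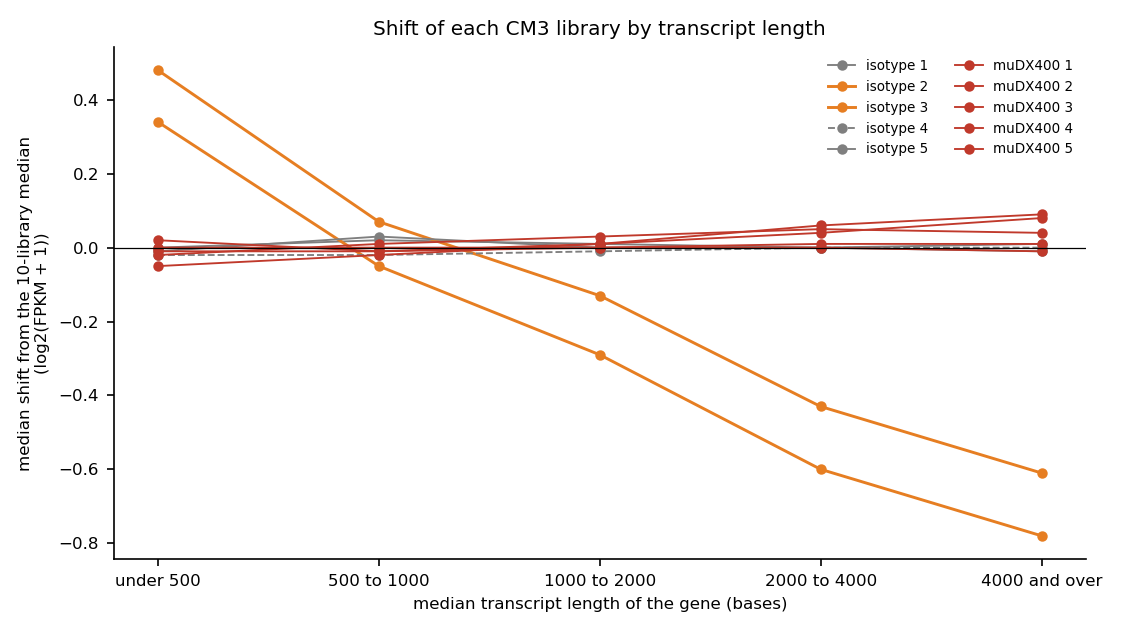
Median shift of each CM3 day 19 library from the 10-library median (vertical axis, log2(FPKM + 1)) in 5 classes of transcript length (horizontal axis, bases); grey lines are isotype, red lines muDX400, and orange lines isotype 2 and 3. The orange lines fall from 0.48 and 0.34 in the shortest class to -0.61 and -0.78 in the longest, while the other 8 stay near 0.

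Isotype 4 differed from the other 4 isotype libraries in another way. It lay above all of them for 4155 of 12945 genes (32.1%) and below all of them for 3250 (25.1%), with no shift by transcript length (-0.02 to 0.0 over the 5 length classes). It also held skeletal muscle transcripts: Acta1, muscle actin, was at 405 FPKM and Ckm, muscle creatine kinase, at 196, against at most 0.5 and 0.627 in the other isotype libraries. The 2 genes were at 70.8 and 42.5 in muDX400 3 and at 25.9 and 16.4 in muDX400 4, and at most at 1.1 and 0.338 in the other 3 muDX400 libraries. Of the 13 skeletal muscle markers, 2 passed the filter on low values. The part of these muscle transcripts in the other differences of isotype 4 was not tested. The arms of CM3 were unequal in spread: the median SD of a gene over the 5 tumours was 0.439 in the isotype arm and 0.12 in the muDX400 arm, and 96.2% of genes were wider in the isotype arm. The median ratio of the isotype SD to the muDX400 SD was 3.37 in CM3 and ran from 0.758 to 1.91 in the other 10 models.

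With all 10 libraries, no gene passed the threshold between muDX400 and isotype (limma, Benjamini-Hochberg adjusted p under 0.05; 0 of 12945 genes, 0.0%). The lowest adjusted p was 0.102, at Cd163. At an unadjusted p under 0.05 there were 3441 genes (26.6%), of which 2279 (17.6%) were higher and 1162 (8.98%) lower after muDX400. In 291 genes (2.25%) every muDX400 tumour lay above every isotype tumour, and in 166 (1.28%) every muDX400 tumour lay below. The median difference over all genes tested was 0.13 on the log2 scale, and -0.0 after median-ratio scaling, so differences near 0.13 are those of the typical gene.

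Leaving out isotype 4 moved this count more than leaving out any other library. Without it, 2582 genes (19.9%) rose and 1456 (11.2%) fell, 4038 in all. Leaving out each of the other 9 libraries in turn left 0 genes. Without isotype 2, 3 and 4, which leaves 2 isotype tumours against 5, 2687 genes (20.8%) rose and 2266 (17.5%) fell. After removal of the transcript length trend, without isotype 4, 1998 (15.4%) rose and 2410 (18.6%) fell, and 3365 genes were called in this fit as well as in that without isotype 4 alone, 83.3% and 76.3% of the 2 sets. Isotype 4 was singled out because its values lie near those of the other arm. Leaving it out therefore widens the gap between the arms by its choice, and the calls below that rest on its absence describe how 4 isotype tumours compare with 5 muDX400 tumours. The adjusted p-values of that fit are also too small. In simulated data with the unequal spread of these arms, it called more unchanged genes than the threshold allows. So did the simulated fit that compares CM3 with MC38, where MC38 was given the spread of the CM3 muDX400 arm. The fits against MBT2 and B16F10 were not simulated. In what follows, "rose" and "fell" refer to calls in the fit without isotype 4, and each difference is given first with all 10 libraries. Every list count below is to be read beside the 19.9% of all genes that rose and the 11.2% that fell in that fit.

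Pdcd1 itself was at 1.96, 2.07, 0.91, 5.98 and 2.21 FPKM in isotype tumours 1 to 5 and at 7.52, 7.54, 8, 6.96 and 8.74 in muDX400 tumours 1 to 5. The arms did not overlap, and isotype 4 was the nearest to the muDX400 tumours. The difference was 1.41 ± 0.28 (SE) on the log2 scale, 2.65-fold on the FPKM + 1 scale (adjusted p = 0.179; 1.68 ± 0.17 and adjusted p = 0.00108 without isotype 4; limma). Cd274, which encodes PD-L1, was at 54.6, 21.4, 7.97, 138 and 40.4 in the isotype tumours and at 118, 139, 116, 119 and 124 in the muDX400 tumours. Isotype 4 lay within the muDX400 range, and the other 4 lay below it. The difference was 1.77 ± 0.58 (adjusted p = 0.179; 2.25 ± 0.44 and 0.00609 without isotype 4; limma). Cd8a, the CD8 co-receptor of cytotoxic T cells, was at 2.66, 1.61, 0.182, 6.59 and 1.92 in isotype tumours and at 6.56, 6.54, 6.85, 7.09 and 8.55 in muDX400 tumours, a difference of 1.42 ± 0.39. Isotype 4 again overlapped the muDX400 tumours. In exact 2-sided permutation tests of the difference of means over all arrangements of the 10 tumours, p was 0.00794 for Pdcd1, the smallest this design can give, 0.0397 for Cd274 and 0.0238 for Cd8a. The plot of 12 genes by tumour shows the same arrangement in most panels, with isotype 4 at the level of the muDX400 tumours.

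**Figure D2:**
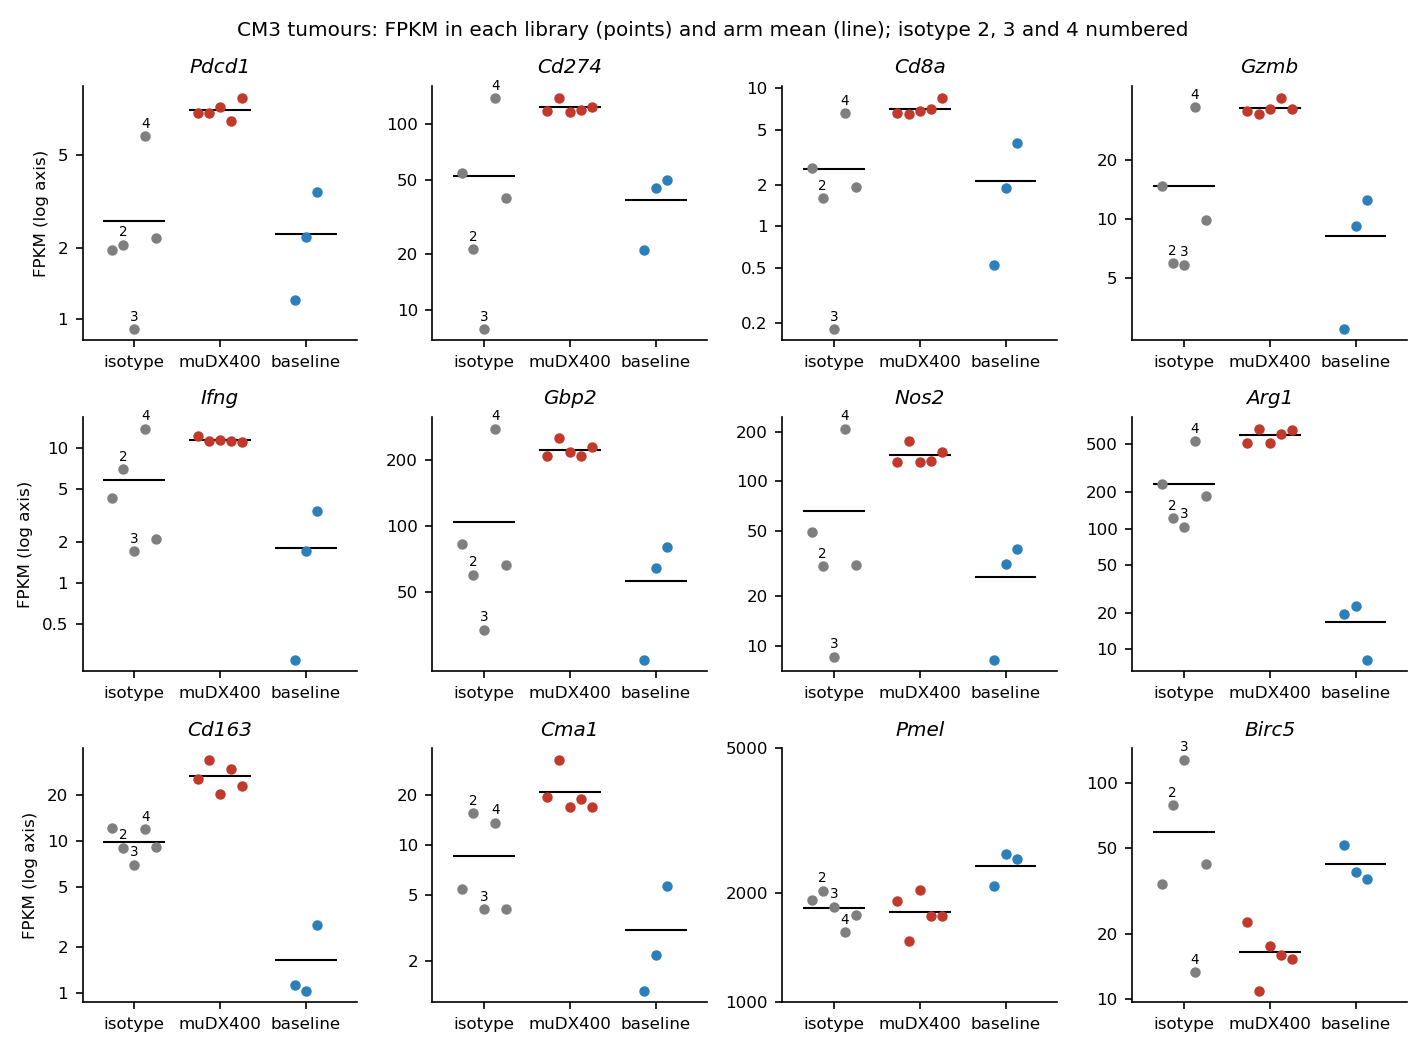
FPKM (log axis) of 12 genes in each of the 13 CM3 tumours, grouped by arm; points are libraries, horizontal lines are arm means, and isotype 2, 3 and 4 are numbered. Isotype 4 sits with the muDX400 tumours for Cd274 (138 against 116 to 139) and Gzmb (37.4 against 34.4 to 42), but not for Cd163, where all 5 isotype tumours are at 12.2 or less and all muDX400 tumours at 20.2 or more.

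For all 15 measured genes of T-cell identity, every muDX400 tumour lay above isotype 1, 2, 3 and 5, a pattern found in 21.6% of all genes. Of these 15 genes, 14 rose and 0 fell without isotype 4, where 19.9% of all genes rose, and the median difference over the list was 0.85 with all libraries, against 0.13 for all genes. Cd3e, a signalling chain of the T-cell receptor complex, was at 3.1, 3.35, 2.74, 9.23 and 3.85 FPKM in the isotype tumours and at 8.39 to 12 after muDX400 (1.07 ± 0.25). Lck, the kinase that starts T-cell receptor signalling, was at 3.78 to 6.46 in isotype 1, 2, 3 and 5, at 14.7 in isotype 4 and at 10.7 to 13.1 after muDX400 (0.8 ± 0.27). Cd4, the co-receptor of helper T cells, was at 1.13 to 2.09 in those 4, at 5.38 in isotype 4 and at 3.28 to 6.04 after muDX400 (0.94 ± 0.28). Foxp3, the regulatory T-cell factor, was at 0.111 to 1.02 in the isotype arm and at 0.651 to 1.54 after muDX400 and did not pass the filter on low values. In tumour tissue, fewer cells of a type and less RNA per cell cannot be told apart, here and in the groups that follow.

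Among 16 genes of CD8 T cells and cytotoxic effectors, 14 rose and 0 fell, and the median difference was 1.05 with all libraries. Prf1, the pore-forming protein perforin, was at 4.68, 4.07, 2.35, 13.6 and 4.85 in the isotype tumours and at 15.2, 13.6, 14.4, 15.3 and 16.1 after muDX400. Its arms met at isotype 4 without crossing, and the difference was 1.39 ± 0.31. Gzmb, the protease granzyme B, was at 5.84 to 14.8 in isotype 1, 2, 3 and 5, at 37.4 in isotype 4 and at 34.4 to 42 after muDX400 (1.6 ± 0.41). Ifng, interferon-gamma itself, was at 4.23, 6.95, 1.73, 13.9 and 2.13 in the isotype tumours and at 11 to 12.3 after muDX400 (1.16 ± 0.4). The 5 muDX400 tumours were close together for all 3 genes. Ccl5, a chemokine made by activated T cells, was at 9.27 to 24.8 in isotype 1, 2, 3 and 5, 62.2 in isotype 4 and 49 to 61.4 after muDX400 (1.41 ± 0.41). Cxcr6, a homing receptor of tissue T cells, was at 0.891 to 1.73, at 8.01 and at 7.39 to 8.45 in the same 3 sets (1.53 ± 0.36).

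All 8 measured inhibitory receptors rose without isotype 4, and their median difference was 1.11. Lag3 was at 4.49 to 5.75 in isotype 1, 2, 3 and 5, at 11 in isotype 4 and at 8.7 to 12.2 after muDX400 (0.7 ± 0.21). Havcr2, which encodes TIM-3, was at 0.294 to 2.1, at 5.58 and at 4.28 to 6.38 in those sets (1.21 ± 0.36). The second ligand of PD-1, Pdcd1lg2, was at 14.6 to 28.5, at 71 and at 55.1 to 95.5 (1.24 ± 0.35). NK-cell genes were less clear: 4 of 11 markers were measured and 1 rose, where 19.9% of all genes did. Ncr1, the NK receptor NKp46, was at 0.647 to 3.72 in the isotype arm and 2.68 to 5.7 after muDX400, with overlapping arms (0.45 ± 0.28, adjusted p = 0.101 without isotype 4; limma). Klrd1, the CD94 receptor of NK and CD8 T cells, was at 0 to 1.55 and 0.273 to 0.706, below the filter.

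Of 26 genes induced by interferon-gamma, the longest of the 44 lists, 25 rose and 0 fell without isotype 4. Without isotype 2, 3 and 4, 24 were called higher and 0 lower, beside 20.8% and 17.5% of all genes. The list's median difference was 1.28 with all libraries, 1.73 without isotype 4 and 1.23 without isotype 2, 3 and 4. Irf1, a transcription factor induced by interferon-gamma, was at 68.4, 73.6, 48, 211 and 49.5 FPKM in the isotype tumours and at 134 to 169 after muDX400 (0.89 ± 0.35). Gbp2, a guanylate-binding protein of cell defence, was at 82.9, 60, 33.5, 280 and 66.5 and at 209 to 253 (1.48 ± 0.44). Isotype 4 was above all 5 muDX400 tumours for both genes, and the other 4 isotype tumours were below all 5. Cxcl9, a chemokine that draws T cells, was at 71.8, 37.5, 25.9, 175 and 67 and at 86.4 to 132 (0.84 ± 0.42).

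Promoters of the interferon-gamma list were searched for the GAS motif TTCNNNGAA and the ISRE motif (GAAA, any 2 bases, GAAA), which interferon regulatory factors bind, both on either strand, in windows of 250 bases before to 50 after the start (RefSeq, GRCm38.p6). The list's 16 genes in the table held a GAS match in 8 and an ISRE match in 12, against 9.55% and 3.99% of all 27025 genes in the table. In 2 other lists searched the same way, a GAS match was held by 13.3% and an ISRE match by 60% of 15 type I interferon genes, and by 7.69% and 23.1% of 13 MHC class I genes. The 200 bases before the start are shown for an interferon-gamma target with a GAS match (Irf1, chr11:53769814-53770013, plus strand, motif 90 bases before the start), for a target with an ISRE match (Gbp2, chr3:142620463-142620662, plus strand, motif 59 bases before the start) and for the ligand Cd274 (chr19:29367238-29367437, plus strand), whose window held neither. Another Irf1 start (chr11:53770273-53770472, plus strand) held neither motif in its window. The windows of Cxcl9, Tap1 and Psmb9, examined in the same way, held neither as well. Capitals mark the motif, and all sequences are written 5′ to 3′.
Irf1: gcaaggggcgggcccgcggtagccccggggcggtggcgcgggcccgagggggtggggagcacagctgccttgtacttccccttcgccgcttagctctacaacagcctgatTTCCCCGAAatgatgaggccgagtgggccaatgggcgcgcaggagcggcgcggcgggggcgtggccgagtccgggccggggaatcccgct
Gbp2: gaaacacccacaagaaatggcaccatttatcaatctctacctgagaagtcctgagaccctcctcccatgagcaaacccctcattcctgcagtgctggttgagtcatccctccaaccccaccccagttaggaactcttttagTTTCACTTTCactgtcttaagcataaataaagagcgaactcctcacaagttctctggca
Cd274: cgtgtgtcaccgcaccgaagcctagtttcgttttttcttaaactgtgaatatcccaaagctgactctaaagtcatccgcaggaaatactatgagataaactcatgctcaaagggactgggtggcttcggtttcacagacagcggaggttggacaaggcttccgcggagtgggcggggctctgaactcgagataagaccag
These matches describe letters in a window only. Irf1, Gbp2 and Cd274 all rose without isotype 4 (1.25, 1.94 and 2.25).

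Of 20 genes of the type I interferon response, 6 rose and 0 fell without isotype 4, where 19.9% of all genes rose, and the median difference was 0.36. Without isotype 2, 3 and 4, 5 were called higher and 2 lower, beside 20.8% and 17.5% of all genes. Oasl2, of the family of antiviral oligoadenylate synthetases, and Ifih1, the RNA sensor MDA5, rose (0.99 ± 0.36 and 0.88 ± 0.31 with all libraries; 1.31 and 1.15 without isotype 4). Isg15, a ubiquitin-like protein, was at 24 to 30.7 in the isotype tumours and at 21.8 to 25.8 after muDX400 (-0.18 ± 0.11). Ifit1, an RNA sensor, was at 5.11 to 8.88 and at 5.88 to 7.58 (0.01 ± 0.15, a sign that turned under both scalings). Neither passed without isotype 4 (adjusted p = 0.267 and 0.842; limma), and the isotype 4 values of both, 28.6 and 7.05, lay inside the range of the other isotype tumours. The difference between the 2 interferon lists was not tested.

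Antigen presentation genes were higher in both classes. Of 11 MHC class II genes 10 rose, with a median difference of 0.93, and of 16 MHC class I genes 9 rose, with a median of 0.48, and 0 fell in either list. Cd74, the class II invariant chain, was at 864, 867, 391, 3247 and 810.1 FPKM in the isotype tumours and at 1744 to 2732 after muDX400 (1.19 ± 0.46). H2-Aa, a class II alpha chain, was at 245 to 449.6 in isotype 1, 2, 3 and 5, at 1240 in isotype 4 and at 602 to 998 after muDX400 (0.86 ± 0.4). B2m, the light chain of class I, was at 1202 to 1493, at 2600 and at 2044 to 2726 in those sets (0.51 ± 0.23). Isotype 4 held the highest H2-Aa and Cd74 of all 10 tumours. Tap1, the peptide transporter, was at 35.8 to 53.5, at 106 and at 68.2 to 89.6 (0.53 ± 0.25). Psmb9, an immunoproteasome subunit, was at 39.5, 67.6, 73.1, 93.3 and 32.9 in the isotype tumours and 59 to 91.1 after muDX400, with isotype 2 and 3 inside the muDX400 range (0.25 ± 0.27, adjusted p = 0.196 without isotype 4; limma).

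Macrophage genes were higher after muDX400 and included the gene with the lowest p. Of 19 macrophage and monocyte genes 18 rose, 0 fell and the median difference was 1.18. Cd163, a haemoglobin scavenger receptor of resident-type macrophages, was at 12.2, 9.01, 6.98, 11.9 and 9.13 in the isotype tumours and at 25.4, 34.2, 20.2, 29.7 and 23 after muDX400. Isotype 4 lay with the other isotype tumours for this gene, and the difference was 1.34 ± 0.18 (adjusted p = 0.102; limma). Csf1r, the receptor for the macrophage growth factor, was at 32.5, 16.5, 11.6, 89 and 33.9 and at 55.1 to 81.4 (1.25 ± 0.44). Adgre1, which encodes the F4/80 antigen, was at 5.91 to 20.3 in isotype 1, 2, 3 and 5, at 53.9 in isotype 4 and at 30.4 to 40.5 after muDX400 (1.18 ± 0.45). Lyz2, myeloid lysozyme, was at 62.6 to 331, at 1854 and at 961 to 1318 (1.89 ± 0.69), and Ms4a6d, a macrophage membrane protein, at 17.1 to 33.4, at 62.8 and at 66.1 to 78.9 (1.2 ± 0.27). Dab2, an endocytic adaptor, kept its arms apart at 4.94 to 26.2 and 28 to 40.7 (1.29 ± 0.34).

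All 6 measured enzymes of arginine, itaconate and tryptophan metabolism rose, with a median difference of 1.41. Nos2, inducible nitric oxide synthase, was at 48.8, 30.3, 8.56, 209 and 31.1 FPKM in the isotype tumours and at 130 to 175 after muDX400 (1.85 ± 0.63). Arg1, arginase, was at 235, 122, 104, 530.4 and 186 and at 513 to 675 (1.58 ± 0.38). Acod1, which makes itaconate, was at 0.953 to 5.39 in isotype 1, 2, 3 and 5, at 42.3 in isotype 4 and at 26.7 to 30.1 after muDX400 (2.14 ± 0.64). Both Nos2, often used to mark interferon-activated macrophages, and Arg1, often used to mark those of tissue repair, were higher in the same tumours.

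Other myeloid groups followed in part. Of 10 measured neutrophil genes of a list of 16, 6 rose. Csf3r, the receptor for granulocyte growth factor, was at 2.44 to 7.21 in isotype 1, 2, 3 and 5, at 19.8 in isotype 4 and at 13.4 to 18.2 after muDX400 (1.17 ± 0.39), while Ly6g, Camp, Ltf and Ngp did not pass the filter. In the list of 14 complement genes 12 rose, with a median difference of 0.76. C3, the central component, was at 22.6 to 69.6, at 473 and at 160.3 to 313 (1.65 ± 0.65), whereas C4b was at 26.7, 109, 79.4, 119 and 28.7 in the isotype tumours and at 60.6 to 116 after muDX400 (0.51 ± 0.43). Of 7 measured genes of cross-presenting dendritic cells 5 rose and 0 fell, with a median difference of 0.59. Irf8, a transcription factor that these cells need, which is also on the interferon-gamma list, went from a mean of 31.5 to 57.7 FPKM (1.27 ± 0.46). Where 19.9% of all genes rose and 11.2% fell, 3 of 8 measured genes of mature dendritic cells rose and 2 fell. Those that fell were Ccl17, a chemokine (-0.7 ± 0.23), and Fscn1, an actin-bundling protein that tumour cells also make (-0.5 ± 0.21). Clec9a, a receptor for dead cells on cross-presenting dendritic cells, was at 0.144 to 3.92 in the isotype arm and 2.32 to 2.99 after muDX400, and Ccr7, which guides mature dendritic cells, at 1.61 to 4.68 and 2.62 to 5.24. Neither passed without isotype 4 (adjusted p = 0.0579 and 0.0716; limma).

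Mast-cell genes held the largest share of genes with separate arms among the 44 lists. Of 10 measured mast-cell genes, 4 had every muDX400 tumour above every isotype tumour, against 2.25% of all genes, and 6 rose without isotype 4. Cma1, a chymase, was at 5.43, 15.5, 4.09, 13.6 and 4.13 FPKM in the isotype tumours and at 19.3, 32.6, 16.8, 19 and 16.9 after muDX400 (1.35 ± 0.36). Mcpt4, the connective tissue chymase, was at 2.87, 7.93, 3.84, 8.04 and 2.12 and at 12.1, 22.6, 11, 10.9 and 9.42 (1.32 ± 0.33). Cpa3, mast-cell carboxypeptidase, was at 2.06, 4.45, 1.35, 5.95 and 2.04 and at 8.23, 8.81, 6.77, 7.63 and 6.58 (1.16 ± 0.28). Isotype 2 and 4 were the highest of the isotype tumours for all 3, and both were still below every muDX400 tumour. The fourth was Fcer1a, a chain of the IgE receptor (0.77). Mcpt2, a related protease outside the list, was at 7.42 to 24.3 and at 30.4 to 52.3 (1.28 ± 0.31). Kit, the stem cell factor receptor that both mast cells and melanocytes carry, differed by -0.11. The Mcpt genes are close paralogs, so reads could have been shared among them.

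Of 18 fibroblast and matrix genes 14 rose, with a median difference of 1.0. Col1a1, collagen I, was at 65.4, 27.9, 19.8, 196 and 86.1 in the isotype tumours and at 90.5 to 188 after muDX400 (1.19 ± 0.53), and Dcn, decorin, at 37.5, 55.9, 18.7, 197 and 41.3 and at 66.1 to 176 (1.25 ± 0.54). Isotype 4 held the highest value of all 10 tumours for both and for Pdgfra, a fibroblast receptor (14.1 against 4.22 to 10.9 after muDX400). Once the transcript length trend was removed, the list's median was 0.71, while the difference was 1.33 for Col1a1 and 1.06 for Dcn. Sfrp2, a secreted Wnt modulator of fibroblasts, kept its arms apart at 0.641 to 5.22 and 5.55 to 13.4 (1.51 ± 0.37). Tgfbi, a matrix protein induced by TGF-beta, was at 10.9 to 32.3 in isotype 1, 2, 3 and 5, at 66.8 in isotype 4 and at 62.3 to 83.8 after muDX400 (1.36 ± 0.37). Acta2, smooth muscle actin, was at 7.86 to 12, at 19 and at 18.3 to 27.9 (0.89 ± 0.22), and Rgs5, a pericyte marker, at 3.38 to 7.12, at 16.4 and at 11 to 18.4 (0.94 ± 0.32). The list of pericytes and smooth muscle that holds these 2 genes was split: of 10 measured genes 4 rose, and Mcam and Cspg4, surface proteins that melanoma cells also carry, fell (-0.28 ± 0.17 and -0.37 ± 0.15 with all libraries; -0.42 and -0.46 without isotype 4).

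Of 14 endothelial genes 8 rose and 1, Egfl7, fell, and the median difference was 0.56. Pecam1, which encodes CD31, was at 12 to 13.9 in isotype 1, 2, 3 and 5, at 25.2 in isotype 4 and at 20.6 to 30.2 after muDX400 (0.71 ± 0.19). Cdh5, vascular cadherin, was at 2.83 to 5.35, at 9.73 and at 7.12 to 11.6 (0.79 ± 0.24). Icam1 and Vcam1, which arrest leukocytes on vessel walls, were at 5.94 to 18.3 and 7.33 to 13.5 in those 4 isotype tumours, at 44.5 and 24.3 in isotype 4 and at 29.5 to 34.3 and 15.1 to 22.2 after muDX400 (1.02 ± 0.41 and 0.63 ± 0.27). For both adhesion genes isotype 4 was the highest of the 10.

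Fat-cell genes varied from tumour to tumour. Of 11 adipocyte genes 8 rose, with a median difference of 0.95. In 2 of them every muDX400 tumour lay above every isotype tumour, against 2.25% of all genes. Plin1, which coats fat droplets, was at 4.76, 5.36, 1.78, 12.8 and 6.55 in the isotype tumours and at 24.3, 38.5, 13.3, 13.9 and 15.3 after muDX400 (1.67 ± 0.41). Adipoq, adiponectin, was at 6.83 to 23.6 and at 21 to 81.8 (1.36 ± 0.43). Pck1, a gluconeogenic enzyme that fat also makes, had the largest difference of the genes with separate arms, at 1.4 to 6.71 and at 7.97 to 33.6 (1.81 ± 0.46). Fabp4, a fatty-acid carrier of fat and vessels, overlapped at 78.3 to 533 and 201 to 591 (0.65 ± 0.5). muDX400 1 and 2 were the highest of their arm for Plin1, Adipoq and Pck1. The list mean ran from 3.54 to 4.9 in the isotype arm and from 4.86 to 6.2 after muDX400. The part of fat around the tumour in other differences was not tested.

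The 3 lists of the tumour lineage differed in their counts. Of 12 pigment genes 0 rose and 0 fell without isotype 4, and the list's median was 0.12 with all libraries, close to the 0.13 of all genes, and -0.04 after median-ratio scaling. Pmel, the fibre protein of pigment granules, was at 1908, 2027, 1833, 1561 and 1742 FPKM in the isotype tumours and at 1904, 1478, 2042, 1724 and 1724 after muDX400 (-0.04 ± 0.17). Dct, dopachrome tautomerase, was at 2103 to 3012 and at 2332 to 2979 (-0.06 ± 0.19). Tyr, tyrosinase, was at 9.25 to 29.7 and at 6.65 to 16.1 (-0.37 ± 0.31). These arms overlapped for all 3 genes, and the signs of Pmel and Dct turned under quantile normalisation. Mlana, the melanoma antigen MART-1, was at 685 and 732 in isotype 2 and 3 and at 174 to 261 in the other 8 tumours (-0.64 ± 0.4). Mitf, the master regulator of melanocytes, was at 54.2 and 54 in isotype 2 and 3, at 72 to 114 in the other isotype tumours and at 91.6 to 126 after muDX400 (0.59 ± 0.22). Of 10 measured melanocyte regulators 2 rose and 1 fell, near the 19.9% and 11.2% of all genes. The receptors Ednrb and Met rose, and Tfap2a, a transcription factor, fell. The counts of this list depended on the fit. Without isotype 2, 3 and 4, 1 was called higher and 5 lower, beside 20.8% and 17.5% of all genes. With the length trend removed and isotype 4 left out, 0 were higher and 6 lower, beside 15.4% and 18.6% of all genes. The sign of Met turned in the latter fit. Of 9 measured genes of dedifferentiated melanoma 7 rose and 0 fell, with a median difference of 0.61, and 4 were called higher in each of those other fits. Axl, a receptor kinase of dedifferentiated melanoma that fibroblasts and macrophages also make, was at 8.78 to 26 in isotype 1, 2, 3 and 5, at 45.7 in isotype 4 and at 22.6 to 38.4 after muDX400 (0.71 ± 0.37).

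Proliferation genes were lower after muDX400. Of 20, 15 fell and 0 rose without isotype 4, and the median difference was -0.67 with all libraries, -0.87 without isotype 4 and -1.04 without isotype 2, 3 and 4. Top2a, topoisomerase of dividing cells, was at 36.9, 35.2, 32, 18.2 and 47.2 in the isotype tumours and at 24.6, 13.1, 22.5, 21.1 and 18.9 after muDX400 (-0.7 ± 0.24). Isotype 4 lay among the muDX400 tumours. Birc5, survivin, was at 34.1, 79.4, 129, 13.3 and 42.2 and at 10.9 to 22.7 (-1.46 ± 0.49), and Ube2c, a mitotic ubiquitin enzyme, at 42.5, 82.2, 101, 15.5 and 51.9 and at 11.2 to 23.9 (-1.41 ± 0.43). Mki67, which encodes Ki-67, was at 4.2 to 15.9 and 2.95 to 8.36 (-0.42 ± 0.32, adjusted p = 0.0996 without isotype 4; limma). Mcm2, a replication helicase subunit, was at 12.1 to 27.9 and 9.21 to 13.9 (-0.44 ± 0.22). In the map of list means by tumour, isotype 4 stands with the muDX400 tumours for these genes too (3.43 against 3.11 to 3.82). Of 16 ribosomal protein genes 10 fell, with a median of -0.49; their list mean was 10.42 and 10.37 in isotype 2 and 3, against 9.38 to 9.83 in the other 8.

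**Figure D3:**
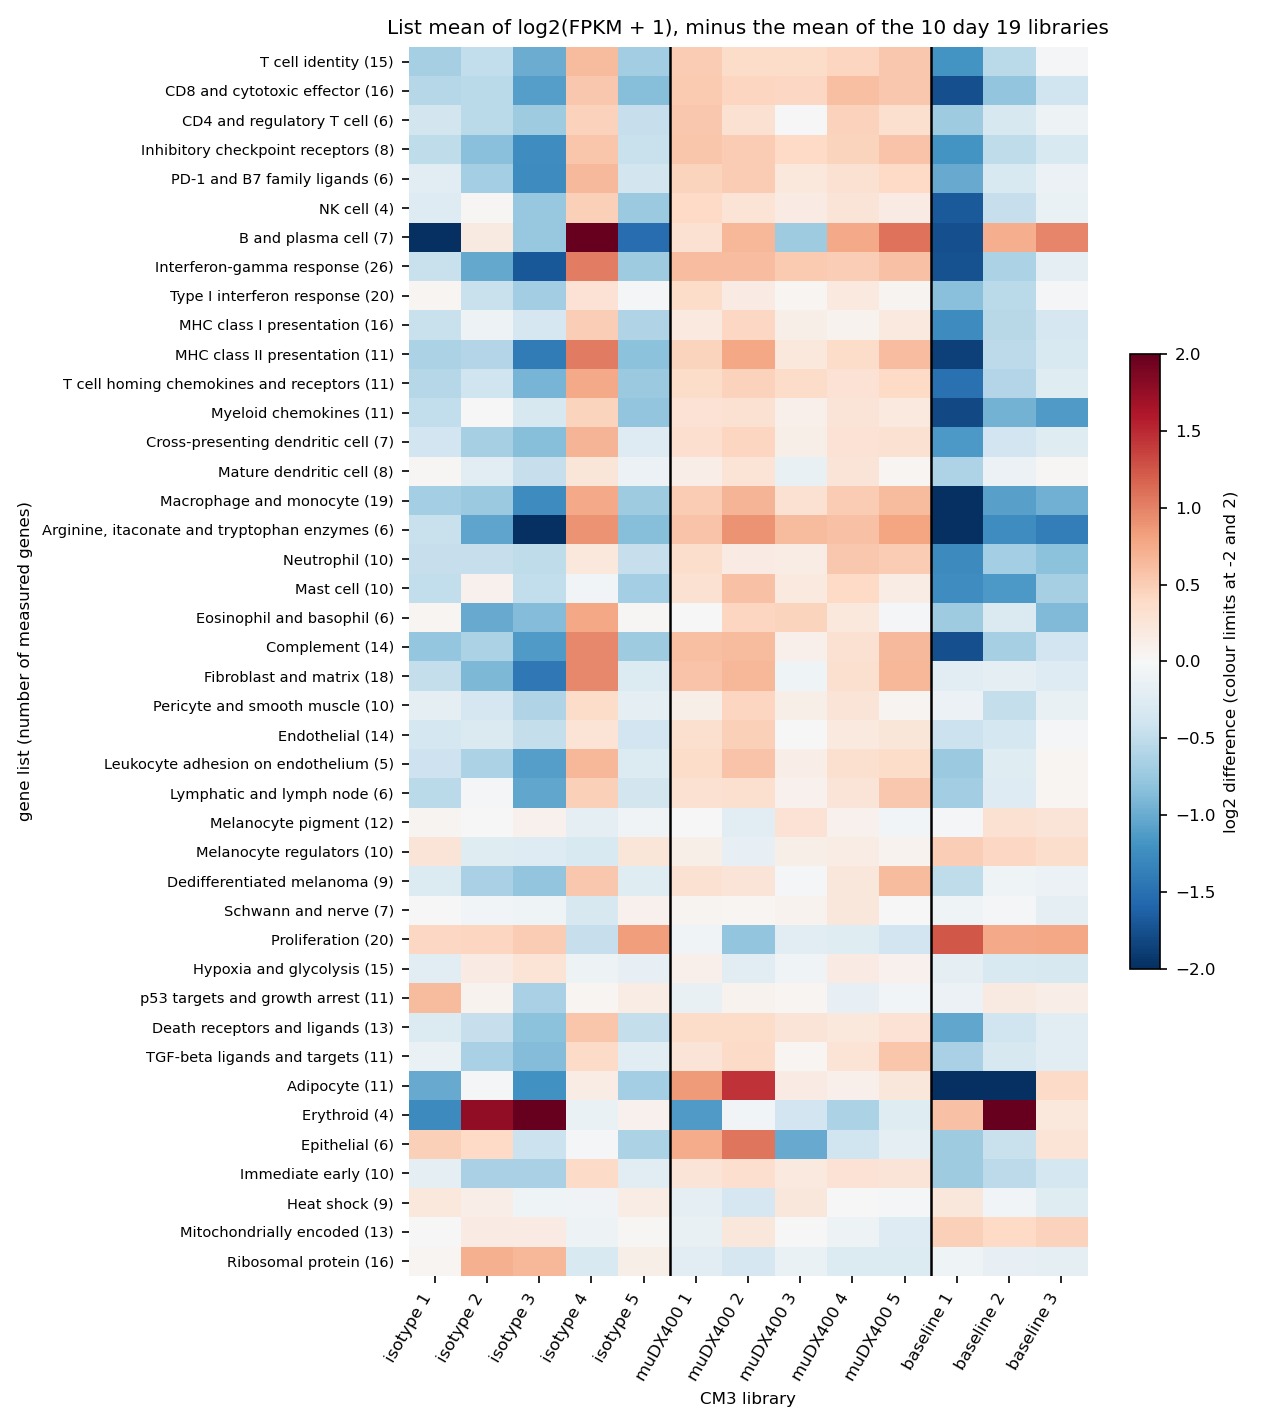
Mean log2(FPKM + 1) of each gene list in each of the 13 CM3 tumours (columns), minus the mean of the 10 day 19 tumours. Rows are lists with 4 or more measured genes, with that number, so skeletal muscle is not shown. Red is higher and blue lower. Isotype 4 resembles the muDX400 columns in many rows. Before subtraction its CD8 and cytotoxic effector mean was 3.46, against 3.33 to 3.52 in the muDX400 tumours and 1.82 to 2.38 in the other isotype tumours. For B and plasma cells it was 5.34, above the 2.51 to 4.3 of the muDX400 tumours.

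Genes of cell death by immune attack were mostly higher: of 13 death receptors, ligands and inflammatory caspases, 11 rose and 0 fell, with a median difference of 0.63. Fas, the death receptor, was at 2.37 to 3.9 in isotype 1, 2, 3 and 5, at 9.75 in isotype 4 and at 6.2 to 8.54 after muDX400 (0.71 ± 0.28). Gsdmd, the pore former of inflammatory death, was at 17.7 to 25.9, at 48.2 and at 28.4 to 35.7 (0.42 ± 0.24). Genes of hypoxia and glycolysis had a median difference of 0.03, with 2 rising and 2 falling of 15, beside 19.9% and 11.2% of all genes. Car9, carbonic anhydrase of hypoxic cells, was at 42.2 and 74 in isotype 2 and 3 and at 4.91 to 12.4 in the other 8 tumours (-1.09 ± 0.59).

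Several lists report on other tissue or on handling. Of 7 measured genes of B and plasma cells 2 rose, where 19.9% of all genes did, and their median difference was 0.89. Without isotype 2, 3 and 4, all 7 were called higher, where 20.8% of all genes were, with a median of 2.31. The list mean ran from 1.1 to 5.34 in the isotype arm and 2.51 to 4.3 after muDX400. Jchain, the joining chain of secreted antibodies, was at 0.571, 17, 7.37, 123 and 1.78 in the isotype tumours and 6.66 to 37.7 after muDX400, while Ms4a1 and Pax5 did not pass the filter. Of the 14 keratinocyte markers, 1 was measured, and 0 of the 4 measured red-cell genes passed, with list means of 5.59 and 5.82 in isotype 2 and 3 and 2.54 to 3.91 in the other 8. Among 10 immediate early genes 7 rose and 1 fell, and Fos kept its arms apart at 20.4 to 39.9 and 44.2 to 53.9 (0.74 ± 0.17). Of 9 heat shock genes 0 rose and 2 fell, beside 19.9% and 11.2% of all genes. Of 13 mitochondrially encoded transcripts 0 passed, and mt-Co1 was at 4405 and 1143 in isotype 2 and 3 and at 9938 to 15913 in the others. The part of immune and stromal cell content, handling or RNA quality in these values was not tested.

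The largest falls with separate arms were led by isotype 2 and 3. Nme1, a nucleoside kinase, was at 22.2, 61, 91.8, 15.8 and 25.7 FPKM in the isotype tumours and at 14.5, 13.6, 15.5, 14.4 and 14.1 after muDX400 (-1.22 ± 0.41). Its relative Nme2, Lsm6 of RNA splicing, Sec61b of the protein translocon, Ppp1r14b, Ctc1, Trir and Rps3a3 showed the same pattern, with isotype 2 and 3 at least as high as any other tumour. Rps3a3 is a near-copy of a ribosomal protein gene, so its value is uncertain. Differences for these 7 ran from -0.81 to -1.19 with all libraries and from -0.18 to -0.51 without isotype 2, 3 and 4. Tfrc, Gcat and Nutf2 differed by similar amounts without those libraries. Tfrc, the transferrin receptor that takes up iron, was at 48.1, 57.7, 86.7, 31.4 and 50.7 and at 22.7 to 30.6 (-0.93 ± 0.22; -0.86 without isotype 2, 3 and 4). Gcat, a glycine enzyme, was at 5.13 to 9.52 and 3.29 to 4.22 (-0.89 ± 0.15; -1.04), and Nutf2, a nuclear import factor, at 26.3 to 52.5 and 21.1 to 23.1 (-0.84 ± 0.17; -0.82). Tnnt1, a troponin of slow muscle, was at 7.85 to 21.7 and 3.19 to 6.6 (-1.14 ± 0.3). Zfp869, a zinc finger gene among the rises, was at 1.05 and 0.128 in isotype 2 and 3 and at 8.32 to 11.5 in the other 8.

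Without isotype 4 the largest rises were Cd300ld3, Acod1, Serpina3i, Lyz2, Xdh, Il7r, Csf2rb and Gbp10, by 2.5 to 3.03. Il7r, the interleukin-7 receptor of T cells, was at 10.4, 2.34, 0.442, 24 and 5.59 in the isotype tumours and at 22.7 to 26.4 after muDX400, and Csf2rb, a shared receptor chain for myeloid growth factors, at 20.1, 4.32, 1.86, 58.1 and 15.4 and at 40.8 to 55.2. For these 8 genes isotype 3 was the lowest of the 10 tumours. Without isotype 2, 3 and 4 the differences of the 8 were 1.12 to 2.42. The largest falls were Kpna2, Defb41, Fxyd3, Birc5, Etv4, Xist, Dnph1 and Ube2c, by -1.81 to -2.11, and these ran from -0.65 to -1.66 without isotype 2, 3 and 4. Etv4, a transcription factor downstream of growth signalling, was at 13.7, 18.9, 25, 4.27 and 20.7 and at 3.25 to 6.07 after muDX400, so isotype 4 again lay within the muDX400 range. Idi1, an enzyme of cholesterol synthesis, was at 29.1 to 34.6 in isotype 1, 2, 3 and 5, at 7.47 in isotype 4 and at 6.57 to 12 after muDX400 (-1.21 ± 0.37).

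**Figure D4:**
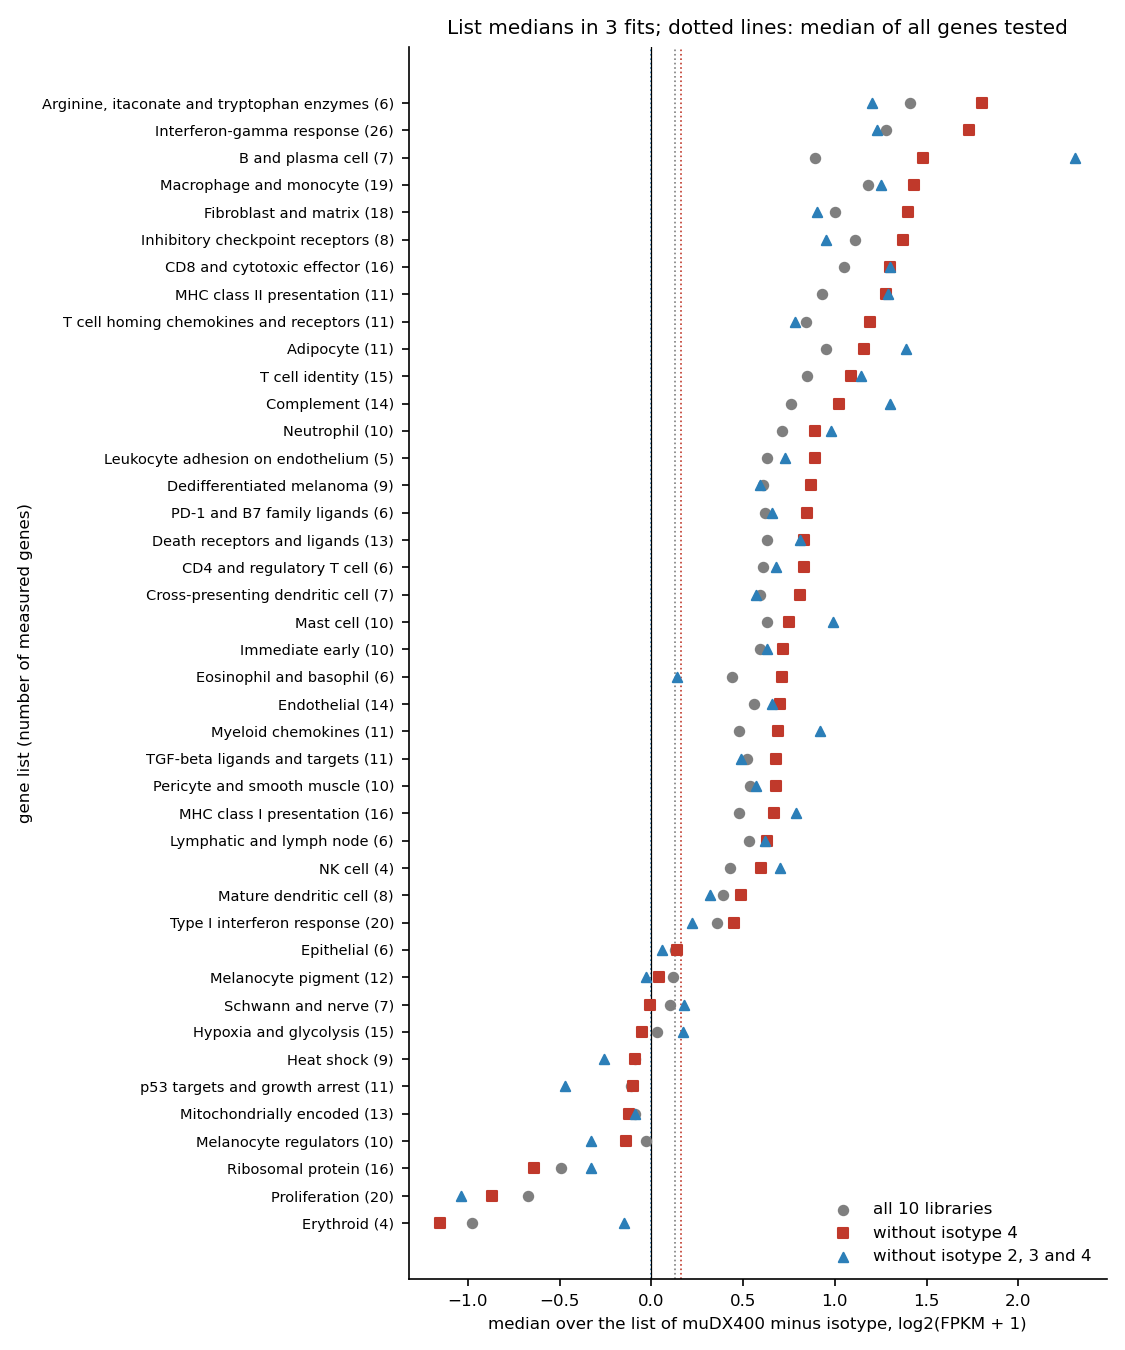
Median over each gene list of the difference between muDX400 and isotype (horizontal axis, log2(FPKM + 1)), for lists with 4 or more measured genes. Grey circles are the fit with all 10 libraries, red squares that without isotype 4 and blue triangles that without isotype 2, 3 and 4. Dotted lines are the medians of all genes tested. Interferon-gamma genes lie at 1.28, 1.73 and 1.23 and proliferation genes at -0.67, -0.87 and -1.04 in the 3 fits, while pigment genes lie at 0.12, 0.04 and -0.03.

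The 3 untreated baseline tumours are given beside the treated arms without a test, since their day of excision is not given and their sample numbers form a separate run. Pdcd1 was at 1.21, 2.23 and 3.47 FPKM in them and Cd274 at 21.2, 45.6 and 50.4, within the range of the isotype arm. Arg1 was at 8.19 to 22.9 and Cd163 at 1.03 to 2.78 in baseline tumours, below every isotype tumour. Top2a was at 43.9 to 68.2 and the mean of the proliferation list at 4.65 to 5.14, against 3.43 to 4.73 in the isotype arm and 3.11 to 3.82 after muDX400. Pmel was at 2091 to 2551 in them, above all 10 treated tumours.

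The effect of muDX400 in CM3 was then compared with that in MC38 and MBT2, the other models labelled High, and in B16F10, the other model with pigment genes, labelled Resistant. Each comparison tested the difference of the 2 effects in a fit of 20 libraries. Against MC38, a colon carcinoma line, 39 genes (0.28%) had a higher effect in CM3 and 51 (0.366%) a lower effect, of 13936 tested. Of these 90, 53 passed the filter on low values in both models, 12 in CM3 only and 25 in MC38 only. Without isotype 4 the count was 995, and without any other single CM3 library it was 18 to 50. Against MBT2, a bladder tumour line, 0 of 13822 genes passed (0.0%; 2735 at an unadjusted p under 0.05; lowest adjusted p 0.0562), and against B16F10 0 of 13455 (0.0%; 2254 at an unadjusted p under 0.05; lowest adjusted p 0.274). Without isotype 4 these counts were 3081 and 1807.

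Genes whose effect was higher in CM3 than in MC38 included a neutrophil chemokine and a Notch ligand. Cxcl1, a neutrophil chemokine, went from a mean of 2.24 to 3.4 FPKM in CM3 and from 15.4 ± 4.52 to 3.68 ± 0.647 (SD, n = 5) in MC38, a difference of effects of 2.32 ± 0.38 (adjusted p = 0.0129; limma). S100a8, a neutrophil alarmin, went from 1.6 to 3.53 in CM3 and from 3.43 to 0.674 in MC38, where it did not pass the filter. It entered the comparison through CM3 alone, so its difference of effects, 2.09 ± 0.48 (limma adjusted p = 0.0499), is a description. Jag1, a Notch ligand, Itm2a and Gja1, a gap junction protein, had differences of 1.82, 1.62 and 1.54 (limma adjusted p = 0.0445, 0.0445 and 0.0496). In all 5 the CM3 effect was positive and the MC38 effect negative. The neutrophil gene Csf3r had effects of 1.17 in CM3 and 1.74 in MC38, and their difference did not pass (-0.57 ± 0.48).

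Genes whose effect was lower in CM3 were led by Retnla, a secreted product of alternatively activated macrophages, with means of 451 and 164 in the isotype and muDX400 arms of CM3 and 8.69 and 36.4 in MC38 (-3.2 ± 0.69, adjusted p = 0.0445; limma). Klrd1 was at means of 0.392 and 0.517 in CM3, below the filter, and of 2.5 and 17.7 in MC38. It entered the comparison through MC38 alone, so its difference is a description of a gene near 0 in CM3. Cyp27a1, a sterol hydroxylase of macrophages, Cryab, a small heat shock protein, and Trpm2, a calcium channel, had differences of -2.08, -1.93 and -1.6 (limma adjusted p = 0.0119, 0.0119 and 0.0223). Cytotoxic genes had larger effects in MC38 without passing: the effects on Gzmb were 1.6 and 2.77, with a difference of -1.17 ± 0.53 (adjusted p = 0.302; limma), and those on Cd8a 1.42 and 2.72. Pdcd1 and Cd274 had effects of 1.41 and 1.77 in CM3, 2.17 and 2.05 in MC38, 1.12 and 1.81 in MBT2 and 0.33 and 0.62 in B16F10. In the isotype arm the median Cd274 level was 40.4 FPKM in CM3, 11 in MC38, 12 in MBT2 and 1.63 in B16F10. With all libraries, no difference of effect passed for these 2 genes.

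**Figure D5:**
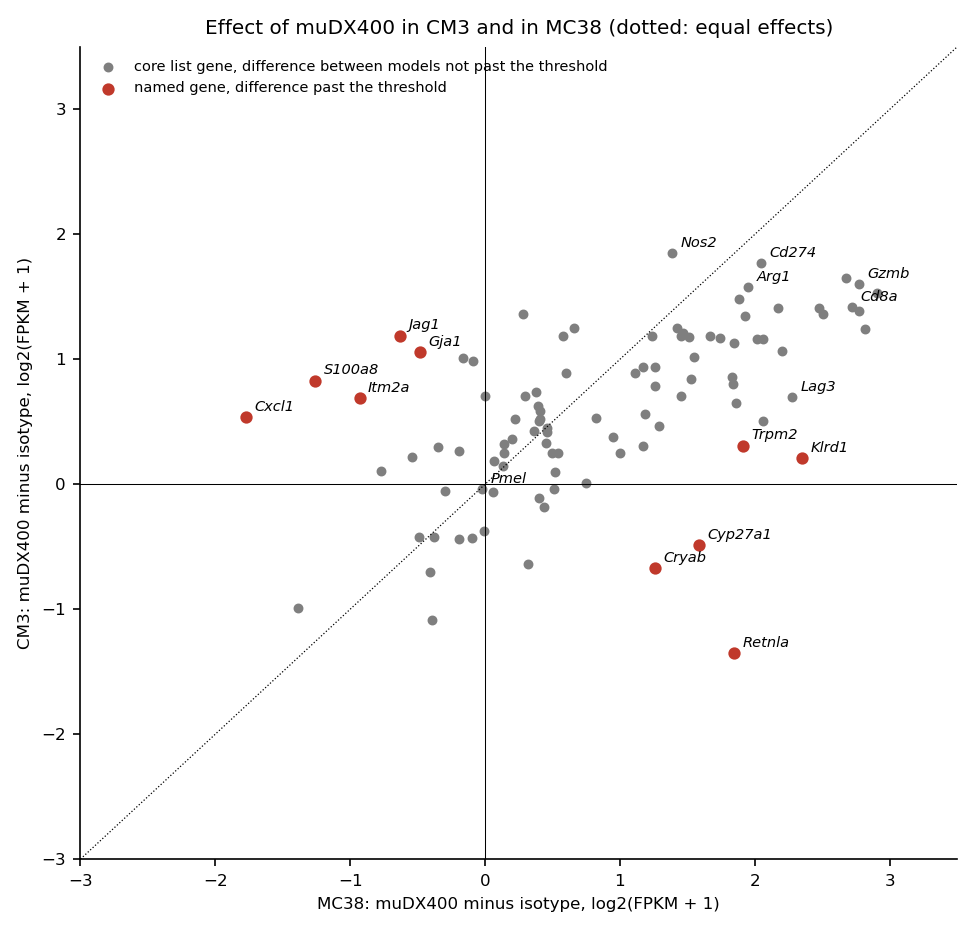
Effect of muDX400 in CM3 (vertical axis) against that in MC38 (horizontal axis), each as muDX400 minus isotype in log2(FPKM + 1). Red points are the 10 named genes whose difference of effects passed the threshold, and grey points are list genes that did not pass. Klrd1 passed the filter in MC38 only and S100a8 in CM3 only. Red points to the left of the dotted line of equal effects, such as Cxcl1 (0.54 in CM3 and -1.77 in MC38), have the higher effect in CM3, and those to the right, such as Retnla (-1.35 and 1.85), the lower.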

How the data were processed

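The authors deposited one table of FPKM values per gene and library. Per the labels' protocols, total RNA was depleted of ribosomal RNA (TruSeq stranded) and sequenced as 50-base paired reads. The names of the aligner, quantifier and genome build were not given in the sources used here. Columns were matched to samples by the sample number in the descriptions, and 0 columns had no sample. Genes that reached an FPKM of 1 in 5 or more of the 10 libraries were compared as log2(FPKM + 1) with limma 3.58.1 in R 4.3.3 (intensity trend, 2-sided, Benjamini-Hochberg adjustment, threshold 0.05). Depth was estimated from the smallest steps between values, and FPKM keeps no read counts, so no count test was run. Fold changes on the log2(FPKM + 1) scale understate those of low genes. Aldoa has 2 identifiers, of which the one with the higher mean was used. Reads of near-identical genes could have been split between them.

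The 44 gene lists and the comparison itself were chosen with earlier results of these data known. Named genes were Pdcd1, Cd274 and Cd8a, core list members, the 12 largest rises and falls with separate arms, the 8 largest calls each way without isotype 4, 5 each way per comparison of models, and genes that set isotype 2, 3 or 4 apart. Predicted genes, small RNAs and antigen receptor segments were not named. Egfl7, Fcer1a, Kit, Irf8, Ccl17, Fscn1, Mcam, Cspg4, Ednrb, Met, Tfap2a, Oasl2 and Ifih1 lie outside this rule and were chosen after their values were seen. Some genes that the rule selected are not reported here. Transcript lengths came from GENCODE mouse release 21 and promoters from RefSeq (GRCm38.p6). Alternatives covered scaling, pseudocount, filter, left-out libraries, weights and transcript length. Tested on simulated data, the fit kept near its threshold when all arms had one spread. With the wider spread of the CM3 isotype arm it missed more changed genes and called too many unchanged ones, most in the fit without isotype 4, so adjusted p-values near the threshold are weak there.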

Additional observations from a re-analysis of the deposited data

Results flagged for a closer look

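Of 344 groups of 5 libraries checked, 51 held a sample far from the others, 39 in the isotype arm and 12 in the muDX400 arm. All 39 were isotype 4. Chance sets apart about 1 in 20 groups, but this tally cannot be read against that rate: some genes were named because isotype 4 stood apart in them or because they moved most without it, and all groups share the same libraries. Of the 44 list means of the isotype arm, 6 set isotype 4 apart.

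Isotype 4 was the highest isotype tumour, far above the other 4, in list means of log2(FPKM + 1) for CD4 and regulatory T cells (2.36), macrophages and monocytes (6.47), neutrophils (2.62), complement (6.88), endothelium (3.42) and skeletal muscle (5.44). Among lymphocyte genes its FPKM stood apart for Pdcd1 (5.98), Prf1 (13.6), Cd3e (9.23), Lck (14.7), Gzmb (37.4), Cd4 (5.38), Lag3 (11), Cxcr6 (8.01) and Jchain (123). For interferon and antigen presentation genes it stood apart for Irf1 (211), Gbp2 (280), Gbp10 (16.5), Pdcd1lg2 (71), B2m (2600), Tap1 (106), Irf8 (84.7), H2-Aa (1240) and Cd74 (3247). Myeloid genes with the same pattern were Acod1 (42.3), Lyz2 (1854), Xdh (61.7), Csf1r (89), Nos2 (209), Csf3r (19.8) and C3 (473). Stromal and cell death genes were Dcn (197), Pdgfra (14.1), Rgs5 (16.4), Pecam1 (25.2), Fas (9.75) and Gsdmd (48.2). Isotype 4 was far below the other isotype tumours for Idi1 (7.47) and Tfap2a (22.0).

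In the muDX400 arm, muDX400 2 was far above the other 4 tumours for Cma1 (32.6), Mcpt4 (22.6), Fcer1a (2.42), Fxyd3 (4.52), Pdcd1lg2 (95.5), Irf1 (169) and B2m (2726), and far below them for Mki67 (2.95) and the melanocyte regulator list mean (5.51). muDX400 5 was high for Cd8a (8.55), muDX400 1 for Ncr1 (5.7), and muDX400 4 was low for Trir (59.5).

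The difference between the effects of muDX400 in CM3 and in MC38 passed the threshold of limma's test for 10 named genes. On the log2 scale the effect in CM3 minus that in MC38 was 2.32 for Cxcl1, 2.09 for S100a8, 1.82 for Jag1, 1.62 for Itm2a and 1.54 for Gja1. It was -3.2 for Retnla, -2.14 for Klrd1, -2.08 for Cyp27a1, -1.93 for Cryab and -1.6 for Trpm2. Klrd1 passed the filter on low values in MC38 only and S100a8 in CM3 only, so for both the difference is a description.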

How the results depend on the processing

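FPKM without read counts, 5 tumours an arm and an uneven isotype arm limit these comparisons. The count of genes past the threshold between muDX400 and isotype ran from 0 to 4038 when single libraries were left out, and isotype 4 alone gave the upper value. It was 2 with quantile normalisation, 1 with no filter on low values, 4953 without isotype 2, 3 and 4, 6655 with a weight per library and 6258 with the spread shared over 110 libraries. Removal of the transcript length trend was chosen after seeing the data; without isotype 4 it gave 4408. The difference between CM3 and MC38 passed for 18 to 995 genes with single CM3 libraries left out, 55 with no filter, 4780 with weights and 137 with the length trend removed (41 higher and 96 lower in CM3). Against MBT2 the counts were 0 to 3081, 4404 with weights and 2 with the length trend removed. Against B16F10 they were 0 to 1807, 2337 with weights and 1 with no filter.

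Of 128 genes recomputed under every alternative, signs turned for 6. With all libraries none of the 12945 genes tested passed the threshold, so it does not set these genes apart. Met was among the genes that rose without isotype 4. Met was -0.0 with the length trend removed and -0.05 with isotype 4 left out as well. Ifit1 was -0.13 with median-ratio scaling, -0.19 with quantile normalisation, -0.27 with the length trend removed, -0.31 with isotype 4 left out as well, and -0.06 to 0.11 with single libraries left out. With quantile normalisation Dct was 0.4 and Pmel 0.35. Without isotype 2 and 3 Dct was 0.02, Pmel 0.03 and Mlana 0.06. Pmel was 0.01 with the length trend removed and -0.09 to 0.03 with single libraries left out. Tyr was 0.3 with weights. The cause of these changes was not tested.

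Replicate numbers did not pair the arms: same-numbered tumours deviated together with correlations of 0.0371, 0.104, 0.316, -0.0208 and 0.135. With the replicate block, 0 genes passed in CM3 and 9 in the comparison with MC38.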
